A study of Mus musculus with 7 samples.

Results

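The 39 genes described here are activity-induced early and delayed response genes, which neurons are known to switch on after they fire. They were chosen by symbol from that knowledge and by no rule on their values, although earlier results of these data were known. All 39 were among the 24062 gene symbols in the count tables of 7 samples. The list held 27 genes for transcription factors and other transcriptional regulators and 12 for effectors, the proteins that act at synapses, on kinases or in growth control. The samples came from the brain of Esr1-ZsGreen mice, a transgenic reporter strain whose cells fluoresce green where they make the estrogen receptor ERα, the product of Esr1. By the study's methods the mice were adult females, and the neurons lay in the medial preoptic area (MPA) of the hypothalamus. Each sample was a pool of 2 ZsGreen positive neurons, aspirated through the patch pipette after slices had been warmed by 5 °C during recording. The 4 temperature-responsive (TR) samples held neurons whose firing rose with warming past the study's cutoff, and the 3 non-responsive (NR) samples held neurons that did not meet it. Neurons of both groups had been perfused, sliced, recorded and warmed, and no unwarmed neurons were sequenced, so the comparison addresses how the response genes differ between 2 kinds of warmed neuron and not their induction by warmth. Nothing in the labels ties the samples to separate animals, and p-values therefore measure only the spread between these samples, which may be technical.

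Immediate early genes such as Fos and Egr1 are transcribed within minutes of calcium entry or growth factor signalling, without new protein synthesis. Kinase cascades act on factors already bound at their promoters, among them CREB on the cyclic AMP response element (CRE) and the serum response factor. The products of immediate early genes then regulate a later wave of genes, which includes some for synaptic proteins. Fos is the gene most often stained for when active neurons are mapped in the preoptic area.

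Promoter sequences are shown for Fos, as the best known of these genes, and for 4 genes that differed between the groups, Dusp6 and Ier5 with higher and Egr4 and Gadd45b with lower counts in TR samples. They are the 250 bases before the start of transcription from RefSeq on GRCm38.p6, written 5′ to 3′ on the strand of the gene, and capitals mark matches on either strand to the CRE core TGACG, the TATA box TATAAA or the EGR motif GCGNGGGCG. The windows were chr12:85473640-85473889 (plus strand) for Fos, chr10:99262981-99263230 (plus) for Dusp6, chr1:155099637-155099886 (minus) for Ier5, chr6:85513590-85513839 (minus) for Egr4 and chr10:80929841-80930090 (plus) for Gadd45b. The 4 genes had the largest changes in their direction among called genes with a RefSeq start within 100 bases of their GENCODE start. Jund had no such start and is not shown.
Fos: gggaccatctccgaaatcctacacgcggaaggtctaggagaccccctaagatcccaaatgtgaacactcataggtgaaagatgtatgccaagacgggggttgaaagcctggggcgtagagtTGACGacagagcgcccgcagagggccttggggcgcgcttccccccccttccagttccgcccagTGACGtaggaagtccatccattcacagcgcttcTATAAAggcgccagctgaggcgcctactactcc
Dusp6: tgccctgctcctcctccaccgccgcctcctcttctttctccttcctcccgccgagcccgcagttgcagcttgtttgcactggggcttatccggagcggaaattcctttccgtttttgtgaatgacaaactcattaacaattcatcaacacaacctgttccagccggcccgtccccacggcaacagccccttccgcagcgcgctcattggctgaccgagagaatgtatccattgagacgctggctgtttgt
Ier5: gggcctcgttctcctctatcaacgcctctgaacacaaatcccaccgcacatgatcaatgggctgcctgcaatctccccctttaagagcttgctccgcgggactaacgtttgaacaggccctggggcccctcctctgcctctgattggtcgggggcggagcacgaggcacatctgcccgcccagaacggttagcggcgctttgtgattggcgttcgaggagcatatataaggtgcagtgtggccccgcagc
Egr4: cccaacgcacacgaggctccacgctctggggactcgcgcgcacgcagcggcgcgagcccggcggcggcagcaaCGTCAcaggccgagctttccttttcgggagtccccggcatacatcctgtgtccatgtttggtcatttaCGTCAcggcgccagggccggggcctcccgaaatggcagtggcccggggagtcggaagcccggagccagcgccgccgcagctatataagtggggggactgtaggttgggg
Gadd45b: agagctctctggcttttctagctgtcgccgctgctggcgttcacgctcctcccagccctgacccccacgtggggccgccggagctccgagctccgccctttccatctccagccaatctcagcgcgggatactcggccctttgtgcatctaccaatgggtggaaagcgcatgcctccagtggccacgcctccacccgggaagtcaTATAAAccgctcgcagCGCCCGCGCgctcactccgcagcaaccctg

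In the Fos promoter the CRE core began at positions -129 and -66 and the TATA box at -33, counted from the start. The Egr4 promoter had the CRE core at -177 and -109, and the Gadd45b promoter had a TATA box at -46 and an EGR motif at -30. None of these 3 motifs was found in the windows of Dusp6 and Ier5, which says only that those letters were not there. Of the 39 genes, 28 matched the RefSeq promoter table by symbol, which excludes Fosl1, Egr1, Egr3, Klf10, Crem, Ier2, Arc, Nptx2, Dusp4, Sik1 and Trib1. Only 19 of these 28, without Jund, had a RefSeq start within 100 bases of their GENCODE start, and the shares below use all 28. In windows of 300 bases, which add the 50 bases after the start, the CRE core was present for 19 of the 28 genes (67.9%) against 23.0% of the 27025 genes in the table. The full CRE TGACGTCA, which contains the core, was present for Btg2, Dusp1 and Maff, or 10.7% against 2.03% of all genes. EGR motifs were found for 9 of the 28 genes (32.1% against 6.27%) and the CArG box of the serum response factor for Egr2 and Dusp5 (7.14% against 1.81%). The AP-1 motif TGANTCA was found for Csrnp1 alone (3.57% against 8.97%), and the heat shock motif GAANNTTC for Fosl2, Jun and Homer1 (10.7% against 9.04%). TATA boxes were present for 5 of the 28 genes, or 17.9% against 15.7%. The windows of these genes were rich in G and C, with a median GC content of 63.0% against 52.7% over all promoters, and a match is a description and not a site of binding.

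Library totals ranged from 1914497 to 2814360 counts in TR and from 3309361 to 5125280 in NR samples, while TR samples had counts for 19852 to 21177 genes and NR samples for 17818 to 19820. Levels are given as CPM, the counts of a gene divided by the total of its library and scaled to 1000000, and a floor of 3 counts was worth 0.585 to 1.57 CPM. Replicates of a group differed by more than sampling noise, with a chi-square of 1.94 to 5.36 for each degree of freedom over 12220 genes. Esr1 was present in each sample, at 3.71 to 10.97 CPM. The Y-linked Ddx3y reached 216 to 387 CPM and Xist, expressed from the inactive X chromosome of females, 0.411 to 4.18 CPM, against the stated sex of the mice. Markers of other cell types were present, and none of the 5 markers of each type was at 0 in any sample. The summed endothelial markers were at 63.6 to 189 CPM in TR and 12.1 to 40.2 CPM in NR samples, with 4 of 5 higher by the test given below, and the microglial markers at 257 to 309 and 316 to 333 CPM. Astrocyte markers summed to 1095 to 1223 CPM in TR and 899.6 to 1107 CPM in NR samples, oligodendrocyte markers to 2807 to 3588 and 2442 to 3005 CPM, and neuronal markers to 2384 to 2715 and 2271 to 2502 CPM. The part of these other cells in the levels below was not tested, and in pools of this kind fewer cells of a type and less RNA per cell cannot be told apart.

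Levels of the response genes spanned a wide range in both groups. Together the 39 genes took 0.322% to 0.374% of the counts in TR samples and 0.335% to 0.347% in NR samples, so that the NR range lay inside the TR range. Per kilobase of exon, Fos had the highest level of the list, with a mean of 192 CPM per kb over the 7 samples and rank 91 among the 13745 tested genes with a known length. Gadd45g (77.3 CPM per kb), Egr1 (76.5), Junb (73.7) and Jund (61.9) followed. At the other end, Fosl1, a late member of the Fos family, had 1 to 3 counts in each sample, at or under the floor. Nr4a3 had 1, 5, 2 and 10 counts in TR replicates 1 to 4 and 4, 7 and 1 in NR replicates 1 to 3. For Dusp5 the counts were 1, 2, 1 and 7 in TR and 10, 7 and 7 in NR samples. These last 3 genes fell under the count filter of the test below. In a fit of all genes with at least 1 count none of them passed in edgeR (adjusted p = 0.420 to 0.928), so no difference was detectable at this depth.

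**Figure D1:**
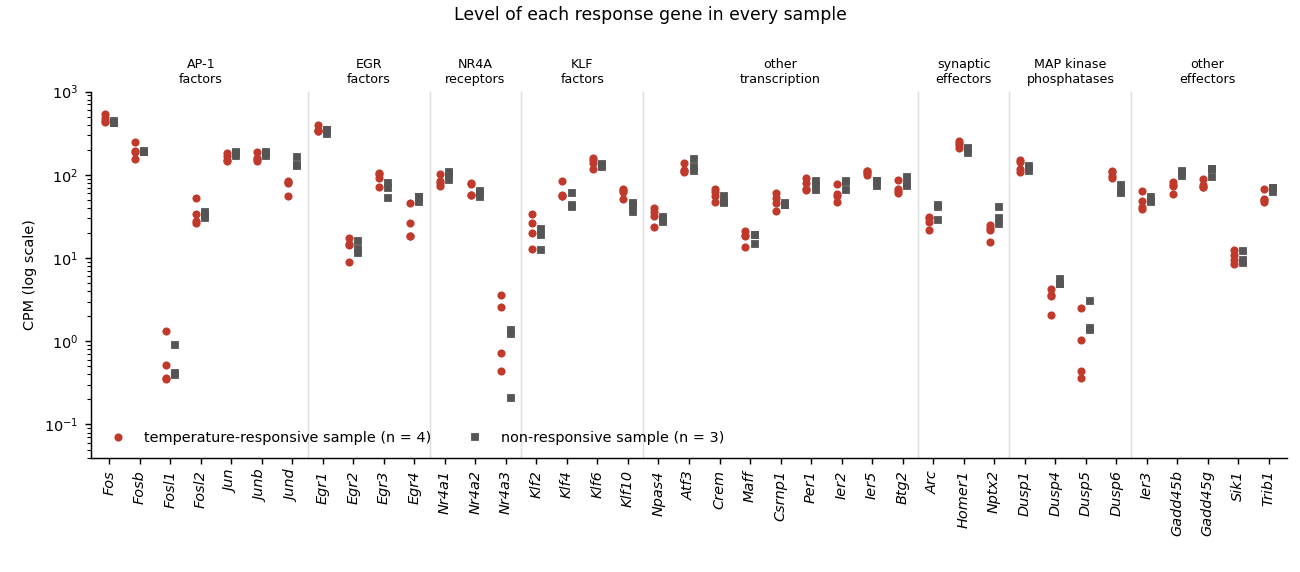
CPM of each of the 39 response genes on a log scale, with 1 point per sample (circles, the 4 TR samples; squares, the 3 NR samples), grouped by role. Most genes have overlapping groups, Fos and Egr1 lie near the top at 309 to 532 CPM, and Fosl1, Nr4a3 and Dusp5 lie near or below the floor.

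Counts of the 2 groups were compared with edgeR's quasi-likelihood test over 14407 genes, each of which had 10 or more counts in 3 or more samples. The test was two-sided, with Benjamini-Hochberg adjustment across these genes and a threshold of 0.05. Of the 39 response genes 36 were tested, and 11 of these passed (30.6%), against 30.0% of all genes tested. Higher in TR samples were Dusp6, Klf10, Egr3, Ier5, Klf4 and Homer1, or 16.7% of the members against 15.1% of all genes, and lower were Jund, Egr4, Nptx2, Gadd45b and Gadd45g, or 13.9% against 14.9%. The shares of members that passed were thus near those of all genes in either direction. Among the 36 genes the log2 fold change (TR over NR) was above 0 for 22 and below 0 for 14, with a median of 0.09 against 0.01 over all genes tested. Groups did not overlap in CPM for 4 members that were higher (11.1%, against 14.5% of all genes) and 6 that were lower (16.7%, against 21.4%). Without NR replicate 3, 3 members were higher (8.33%, against 9.47% of all genes) and 4 lower (11.1%, against 9.01%).

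**Figure D2:**
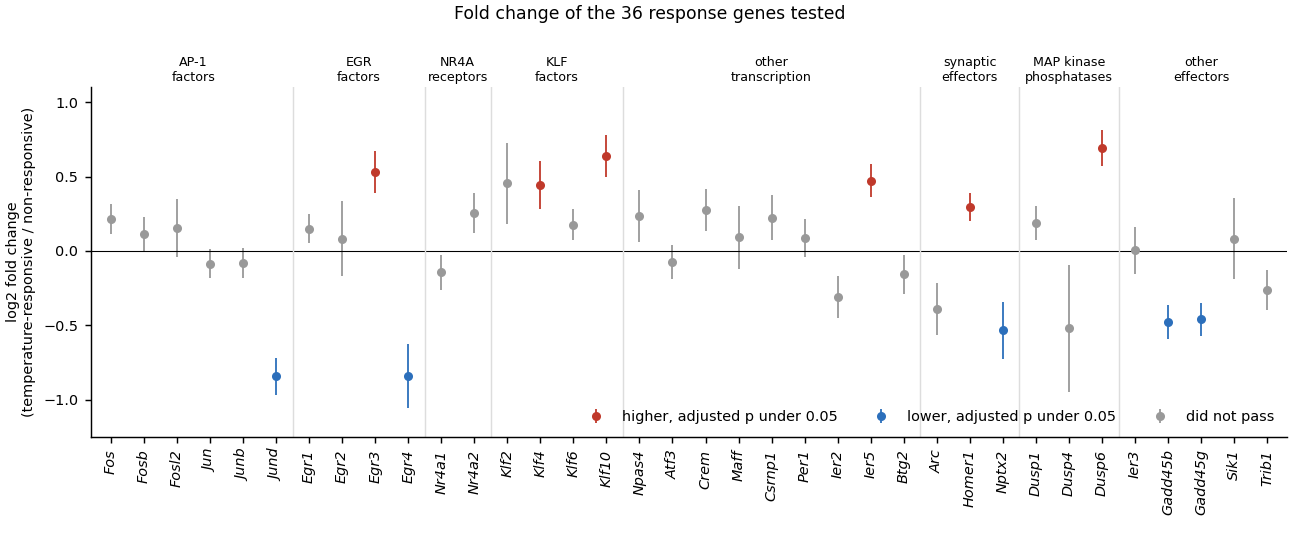
log2 fold change (TR over NR) of the 36 response genes tested, by role; bars are 1 standard error from edgeR, and colours mark genes past the threshold. The 6 higher genes lie between 0.29 and 0.69 and the 5 lower genes between -0.84 and -0.46, and both directions occur within the EGR and synaptic groups.

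Among the AP-1 factors, whose dimers of Fos and Jun proteins bind the AP-1 motif, Jund alone of the 6 tested genes passed, and it was lower in TR samples. Fos, whose promoter is shown above, was measured at 480, 532, 448 and 428 CPM in TR replicates 1 to 4 and at 440, 416 and 419 CPM in NR replicates 1 to 3. The lowest TR sample lay below the highest NR sample, and the other 3 TR samples lay above all NR samples. The log2 fold change of Fos was 0.21 ± 0.10 (SE) and did not pass (adjusted p = 0.116, edgeR). Fosb, whose short form accumulates with repeated activity, had 195, 155, 250 and 187 CPM in TR and 189, 187 and 194 CPM in NR samples. Its NR values lay within the TR range, and its log2 fold change was 0.12 ± 0.11 (SE, adjusted p = 0.473, edgeR). Junb, a Jun protein induced together with Fos, had 155, 160, 189 and 146 CPM in TR and 167, 188 and 182 CPM in NR samples. The groups of Junb overlapped, and its log2 fold change was -0.08 (adjusted p = 0.570, edgeR), or 0.15 with the offset for GC content described below. Jund, the Jun protein that most cells make without stimulation, stood at 79.5, 54.8, 83.7 and 81.7 CPM in TR samples against 132, 127 and 163 CPM in NR samples. Each TR sample was below each NR sample, TR replicate 2 being the lowest. The means of Jund were 74.9 ± 13.5 CPM (SD, n = 4) and 141 ± 19.5 CPM (SD, n = 3), a log2 fold change of -0.84 ± 0.13 (SE, adjusted p = 0.000113, edgeR). The gene Gm11175 on the opposite strand covers 52.6% of the Jund exons on chromosome 8 (70698949 to 70700616, plus strand, mm10), and without a stated strand setting their reads cannot be told apart.

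Fosl2 ranged from 26.5 to 52.9 CPM and Jun, the partner of Fos in the classic AP-1 dimer, from 148 to 185 CPM over the 7 samples, with log2 fold changes of 0.16 and -0.09 that did not pass. Summed over the family, the 4 Fos genes reached 643 to 752 CPM in TR and 633 to 665 CPM in NR samples, which overlapped. The 3 Jun genes summed to 362 to 454 CPM in TR and 484 to 515 CPM in NR samples, which did not overlap. The ratio of Fos to Jund counts was 5.24 to 9.70 in TR and 2.57 to 3.32 in NR samples. These sums and this ratio were chosen after the values of the genes had been seen and were not tested.

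The EGR factors, zinc finger proteins that bind GC-rich motifs, went in different directions, with Egr3 higher, Egr4 lower and Egr1 and Egr2 not past the threshold. Egr1, the most abundant of the 4, was measured at 336, 396, 335 and 341 CPM in TR and 343, 341 and 309 CPM in NR samples. Only TR replicate 2 exceeded the NR range, and the log2 fold change was 0.15 ± 0.10 (SE, adjusted p = 0.262, edgeR). Egr3, a relative of Egr1 that the same signals induce, had 71.5, 102, 92.3 and 104 CPM in TR and 78.9, 69.3 and 52.6 CPM in NR samples. TR replicate 1 lay below the highest NR sample and the other 3 TR samples lay above all of them. With means of 92.5 ± 14.9 CPM (SD, n = 4) and 66.9 ± 13.3 CPM (SD, n = 3), Egr3 had a log2 fold change of 0.53 ± 0.14 (SE, adjusted p = 0.00631, edgeR). Leaving out NR replicate 3, in which Egr3 was lowest, gave 0.38 and ended the call (adjusted p = 0.0545, edgeR). Egr4, whose promoter holds the CRE core at both positions marked above, had 18.5, 18.3, 45.3 and 26.3 CPM in TR and 46.5, 53.7 and 54.3 CPM in NR samples. No TR sample reached an NR sample, although TR replicate 3 came close to the lowest. Its log2 fold change was -0.84 ± 0.21 (SE, adjusted p = 0.00655, edgeR), the same size as that of Jund. Egr2 ranged from 8.83 to 17.2 CPM and had a log2 fold change of 0.08 that did not pass.

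Neither of the tested NR4A genes, orphan nuclear receptors that rise early after stimulation, passed the threshold. Nr4a1 was at 73.3, 79.9, 103 and 84.2 CPM in TR and at 100.3, 87.6 and 107 CPM in NR samples. TR replicate 3 lay inside the NR range and the other TR samples below it, with a log2 fold change of -0.14 ± 0.12 (SE, adjusted p = 0.378, edgeR). Nr4a2, also known for its role in dopamine neurons, ranged from 53.5 to 79.2 CPM, and its log2 fold change was 0.25 (adjusted p = 0.159, edgeR).

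Of the 4 KLF factors, zinc finger proteins that restrain or direct growth, Klf10 and Klf4 were higher in TR samples and all 4 had a log2 fold change above 0, from 0.18 to 0.64, although that of Klf6 turned to -0.04 with the GC offset. Klf10, an early target of TGF-β, was measured at 51.2, 61.6, 66.6 and 65.0 CPM in TR and 45.6, 42.5 and 35.4 CPM in NR samples. All TR samples lay above all NR samples. Its means were 61.1 ± 6.92 CPM (SD, n = 4) and 41.2 ± 5.27 CPM (SD, n = 3), a log2 fold change of 0.64 ± 0.14 (SE, adjusted p = 0.00189, edgeR). Klf4, known as a pluripotency factor and as a gene of blood vessel lining, stood at 57.4, 55.9, 83.3 and 55.8 CPM in TR and 42.9, 60.9 and 41.1 CPM in NR samples. TR replicate 3 was far above the rest, and NR replicate 2 exceeded the other 3 TR samples. The log2 fold change of 0.45 ± 0.16 (SE, adjusted p = 0.0387, edgeR) fell to 0.29 without TR replicate 3 (adjusted p = 0.192, edgeR), and the call was also lost without TR replicate 2 or NR replicate 1 or 3 (adjusted p = 0.0505 to 0.178, edgeR). Klf2, a factor of blood vessel lining as well, ranged from 12.3 to 34.0 CPM and was highest in TR replicate 3, with a log2 fold change of 0.45 that did not pass. It was 0.21 without TR replicate 3 and 0.24 without NR replicate 3, and without TR replicate 4 it was 0.69 and passed (adjusted p = 0.0384, edgeR). The summed endothelial markers were also highest in TR replicate 3, at 189 CPM, and their part in the levels of Klf2 and Klf4 was not tested. Klf6 ranged from 118 to 160 CPM, with a log2 fold change of 0.18 that did not pass.

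Of the other 9 transcriptional regulators, Ier5 alone passed. Ier5, which is known to bind the heat shock factor HSF1 and to be induced by stress as well as by growth signals, had 110, 112, 104 and 101 CPM in TR and 83.4, 83.7 and 73.0 CPM in NR samples. The TR samples lay within a narrow range above all NR samples. Its means of 107 ± 5.22 CPM (SD, n = 4) and 80.0 ± 6.11 CPM (SD, n = 3) gave a log2 fold change of 0.47 ± 0.11 (SE, adjusted p = 0.00255, edgeR). Npas4, a factor that calcium entry induces selectively in neurons, was at 23.4, 31.9, 39.5 and 35.9 CPM in TR and at 30.8, 27.1 and 29.4 CPM in NR samples. TR replicate 1 was below and the other 3 TR samples above all NR samples, and the log2 fold change of 0.23 ± 0.17 (SE) did not pass (adjusted p = 0.322, edgeR). Per1, a clock gene that light and activity induce through CREB, had 78.6, 65.3, 90.9 and 68.2 CPM in TR and 65.6, 74.3 and 83.2 CPM in NR samples. Its values interleaved, with a log2 fold change of 0.09 ± 0.13 (SE, adjusted p = 0.644, edgeR).

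The remaining regulators had log2 fold changes between -0.31 and 0.27, and none passed. Atf3, a stress-induced factor and marker of injured neurons, ranged from 109 to 153 CPM, and Btg2, an antiproliferative cofactor, from 60.6 to 93.5 CPM. Crem, whose ICER isoform represses CRE-driven genes, ranged from 45.7 to 66.8 CPM, and the counts do not separate its isoforms. Csrnp1 ranged from 36.6 to 60.5 CPM and the small Maf protein gene Maff from 13.7 to 21.3 CPM. Ier2, at 46.5 to 76.8 CPM in TR and 66.5 to 83.1 CPM in NR samples, had the lowest value of these, -0.31 (adjusted p = 0.0985, edgeR). It passed without TR replicate 3 (-0.45) or without NR replicate 1 (-0.39).

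Among the synaptic effectors Homer1 was higher, Nptx2 lower and Arc not past the threshold. Arc, which drives the removal of AMPA receptors from synapses, was measured at 27.4, 21.4, 30.1 and 30.9 CPM in TR and 28.4, 43.5 and 40.7 CPM in NR samples. NR replicates 2 and 3 lay above all TR samples and NR replicate 1 among them. The log2 fold change of Arc was -0.39 ± 0.17 (SE, adjusted p = 0.0918, edgeR), and without NR replicate 1 it was -0.53 and passed (adjusted p = 0.0220, edgeR). Homer1, a scaffold of metabotropic glutamate receptors with a short activity-induced form, stood at 208, 252, 242 and 230 CPM in TR and 207, 204 and 183 CPM in NR samples. All TR samples were above all NR samples, but TR replicate 1 exceeded the highest NR sample by only about 1 CPM. Its log2 fold change was 0.29 ± 0.10 (SE, adjusted p = 0.0226, edgeR), but with the GC offset it turned to -0.06 (adjusted p = 0.665, edgeR). Counts per gene do not separate the short form from the long ones. The call was lost without TR replicate 2 or 3 or NR replicate 2 or 3 (adjusted p = 0.0551 to 0.136, edgeR). Nptx2, a secreted pentraxin that gathers AMPA receptors on interneurons, had 15.5, 21.4, 23.2 and 24.9 CPM in TR and 25.7, 29.9 and 40.5 CPM in NR samples. The groups did not overlap, and NR replicate 3 was the highest of all samples. Nptx2 had a log2 fold change of -0.53 ± 0.19 (SE, adjusted p = 0.0389, edgeR) that fell in size to -0.33 without NR replicate 3 (adjusted p = 0.280, edgeR), and its call was also lost without TR replicate 1 or 2 or NR replicate 2 (adjusted p = 0.0555 to 0.106, edgeR). With all counts drawn down to the smallest library total, its log2 fold change was -0.36 and did not pass (adjusted p = 0.214, edgeR).

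The dual-specificity phosphatases switch off MAP kinases, and 1 of the 3 tested members, Dusp6, was higher in TR samples. Dusp6, the cytoplasmic phosphatase of ERK that ERK signalling itself induces, was measured at 96.3, 107, 112 and 91.0 CPM in TR and 74.6, 62.6 and 59.8 CPM in NR samples. All TR samples lay above all NR samples. Its means of 102 ± 9.75 CPM (SD, n = 4) and 65.7 ± 7.87 CPM (SD, n = 3) gave a log2 fold change of 0.69 ± 0.12 (SE, adjusted p = 0.000343, edgeR), the highest of the 36 genes. Dusp1, a nuclear phosphatase also induced by stress, had 151, 108, 143 and 116 CPM in TR and 120, 127 and 110 CPM in NR samples. Its values interleaved, with a log2 fold change of 0.19 ± 0.12 (SE, adjusted p = 0.229, edgeR). Dusp4, a nuclear phosphatase close to Dusp1, had 8, 4, 10 and 12 counts in TR and 16, 29 and 24 counts in NR samples, or 2.09 to 4.26 and 4.83 to 5.66 CPM. Its CPM did not overlap, but on so few counts the log2 fold change of -0.52 ± 0.43 (SE) did not pass (adjusted p = 0.376, edgeR).

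Both Gadd45 genes, which encode small proteins that bind stress kinases and take part in DNA repair and demethylation, were lower in TR samples. Gadd45b, whose promoter is shown above, stood at 75.5, 59.5, 81.5 and 72.8 CPM in TR and 96.4, 108 and 111 CPM in NR samples. Gadd45g was at 71.1, 70.5, 88.0 and 76.0 CPM in TR and at 94.3, 118 and 117 CPM in NR samples. In both genes each TR sample lay below each NR sample, and TR replicate 3 was the closest to them. The log2 fold changes were -0.48 ± 0.12 (SE, adjusted p = 0.00360, edgeR) for Gadd45b and -0.46 ± 0.11 (SE, adjusted p = 0.00407, edgeR) for Gadd45g. The remaining effectors did not pass. Trib1, a pseudokinase that directs protein degradation, ranged from 47.7 to 70.3 CPM with a log2 fold change of -0.26, and Ier3, a regulator of survival, from 39.2 to 64.1 CPM with a log2 fold change of 0.0032. Sik1, a kinase that holds the CREB coactivators out of the nucleus, ranged from 8.36 to 12.4 CPM with a log2 fold change of 0.08.

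Set against each other, the 25 tested transcription members had a median log2 fold change of 0.15, with 4 higher, 2 lower and 19 that did not pass, and the 11 tested effectors a median of -0.26, with 2 higher, 3 lower and 6 that did not pass. Of the transcription members 16.0% were higher and 8.0% lower, and of the effectors 18.2% and 27.3%, against 15.1% and 14.9% of all genes. The medians lay on opposite sides of the 0.01 found over all genes, and the difference between the classes was not tested. Of the transcription members 17 were above 0 and 8 below, and of the effectors 5 and 6. The effector median was the value of Trib1, and the next value above it was 0.0032 for Ier3. Summed over the transcription members, TR samples reached 2459 to 2879 CPM and NR samples 2551 to 2638 CPM. For the effectors the sums were 741.7 to 863 CPM and 774 to 835 CPM, so the NR range lay inside the TR range in both classes.

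The log2 fold change of the members varied with the GC content of their transcripts. GC content was known for 13745 tested genes, and their log2 fold change had a Spearman's rho of -0.342 with it, against -0.600 over the 36 members, a description over genes that share the same 7 libraries. The members were richer in GC, with a median of 55.3% against 49.8% for all tested genes. Counts in NR libraries came from transcripts with a mean GC content of 48.6% to 48.9%, and those in TR libraries from 47.8% to 48.2%. In the richest of 5 bins of GC content with like numbers of genes (55.61% to 72.83%), 16 members were found, of which none was higher and 5 were lower with edgeR, where 6.84% of all genes were higher and 28.0% lower. All 5 lower members lay there, among them Jund at 67.2% and Egr4 at 68.2%, and the 6 higher members lay in the other bins, from Homer1 at 36.9% to Klf4 at 54.6%.

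**Figure D3:**
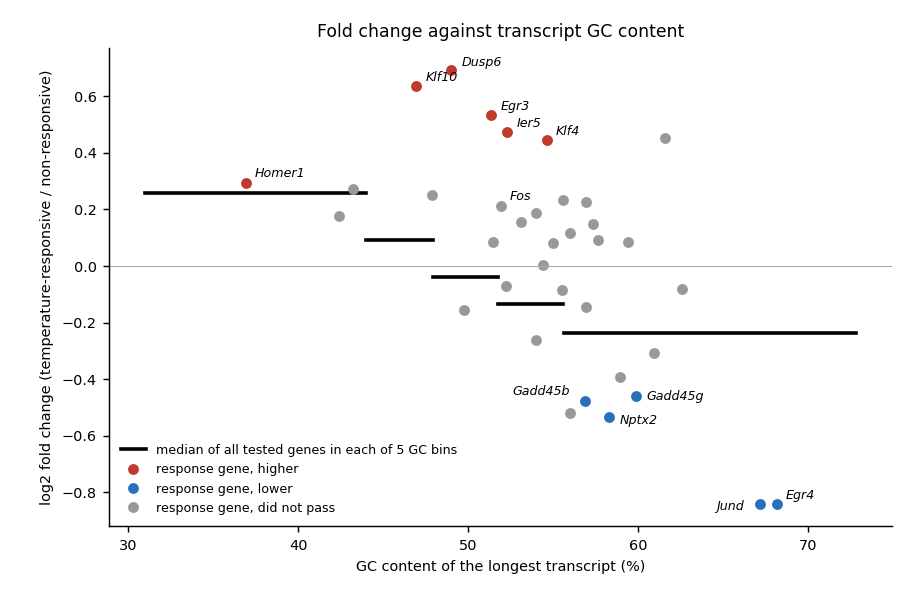
log2 fold change of the 36 tested response genes against the GC content of their longest transcript, with 1 point per gene coloured by call, and the median of all tested genes in each of 5 bins of GC content as black lines. The black lines step down from 0.26 to -0.24, and the 5 lower genes lie at 56.9% GC and above.

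With an offset for GC content fitted in each sample, 5 members were higher (13.9%, against 9.28% of all genes) and 2 lower (5.56%, against 15.3%). Dusp6 (0.64), Klf10 (0.53), Egr3 (0.52), Klf4 (0.49) and Ier5 (0.48) passed with the offset and the same sign, as did Jund (-0.49) and Gadd45b (-0.38) in edgeR. Besides Homer1, Egr4 (-0.47, adjusted p = 0.0624), Gadd45g (-0.30, adjusted p = 0.0545) and Nptx2 (-0.42, adjusted p = 0.101) did not pass. The number of genes detected also separated the groups, with 19852 the lowest in TR and 19820 the highest in NR samples. With that number as a covariate none of the 36 members passed in edgeR, against 0.00694% of all genes, or 1 gene, and at an unadjusted p under 0.05 there were 4 members and 2061 genes. The covariate and the group cannot be told apart in these samples. In that fit the higher genes had log2 fold changes of 0.54 (Dusp6), 0.52 (Klf4), 0.39 (Ier5), 0.33 (Klf10), 0.11 (Homer1) and -0.03 (Egr3). Those of the lower genes were -0.60 (Egr4), -0.53 (Jund), -0.26 (Nptx2) and -0.24 for both Gadd45b and Gadd45g.

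**Figure D4:**
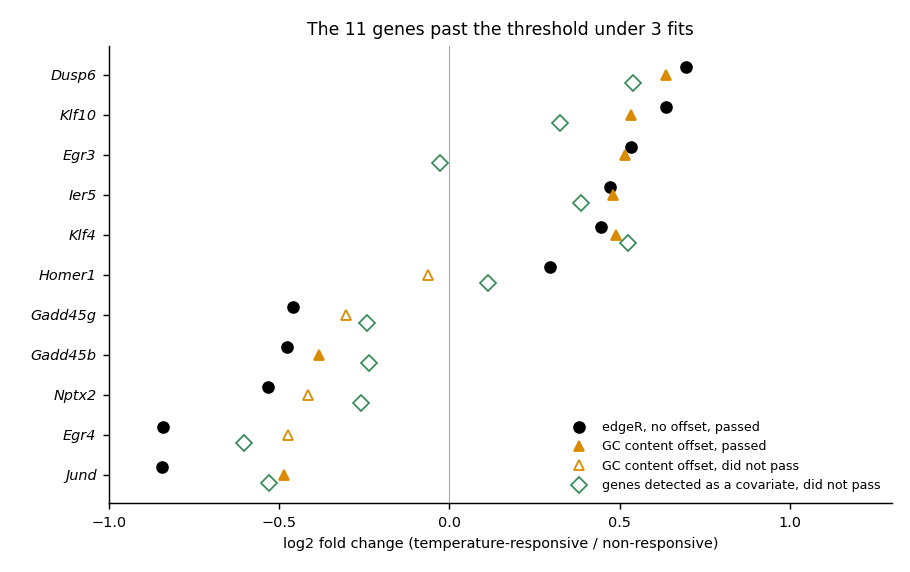
log2 fold change of the 11 response genes past the threshold in edgeR, without an offset (circles), with a GC content offset (triangles) and with the genes detected per sample as a covariate (diamonds); filled symbols passed and open symbols did not. Homer1 crosses 0 with the offset and Egr3 with the covariate, and no gene passed with the covariate.

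Other genes of the pathway were read from 2 further lists. Of 29 other activity-regulated genes, all tested, 8 were higher (27.6%, against 15.1% of all genes), 2 lower (6.90%, against 14.9%) and 19 did not pass, with a median log2 fold change of 0.20. With the GC offset 4 of the 29 were higher, against 9.28% of all genes. The largest changes among those that passed were those of Spry2, an inhibitor of growth factor signalling that ERK induces (0.81), the growth factor receptor gene Egfr (0.73), Mfap3l (0.68), the neuropeptide precursor gene Vgf (-0.63), the prostaglandin synthase gene Ptgs2 (0.55) and Cyr61, a secreted matrix protein (0.54). Spry2 was at 50.8, 59.0, 44.2 and 55.4 CPM in TR and 35.96, 28.5 and 29.2 CPM in NR samples, with no overlap. Bdnf, the neurotrophin gene that activity induces, did not pass, at 74.2 to 117 CPM in TR and 106 to 121 CPM in NR samples (log2 fold change -0.11). Of 38 genes for kinases, coactivators and factors upstream of the response genes, 3 were higher (7.89%, against 15.1% of all genes), 8 lower (21.1%, against 14.9%) and 27 did not pass, with a median of -0.06. The number higher was 1 of 38 with the GC offset, against 9.28% of all genes. With upper quartile scaling it was 7 of 38, against 2634 of 14407 genes. The lower genes included the CREB coactivators Crtc1 (-0.85) and Crebbp (-0.72), the histone deacetylase gene Hdac4 (-0.70) and the ERK kinase gene Map2k2 (-0.45), and the higher genes its relative Map2k1 (0.46) and the calcineurin gene Ppp3cb (0.40). Creb1 (0.21) and Srf (-0.19), which bind the CRE and the CArG box, did not pass (adjusted p = 0.163 and 0.394, edgeR). Both lists were chosen with results of these samples known and are no independent evidence of a direction.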

How the data were processed

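RNA of 7 pools of neurons was amplified with the SMART-seq v4 kit and made into libraries with Nextera XT. The authors mapped the reads to the mm10 genome (STAR 2.6.0), took out PCR duplicates (RmDup) and counted reads per gene (HTSeq 0.9.1), and they deposited these counts per gene symbol without normalization. Without molecular identifiers, removal of duplicates can also discard distinct molecules of abundant genes such as Fos. The strand setting and gene annotation of the counting are not given in the sources used here.

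From the deposited counts, genes with 10 or more counts in 3 or more samples were fitted with edgeR 4.0.16 (TMM, robust quasi-likelihood test, no covariate, R 4.3.3), and standard errors were the size of the log2 fold change over the root of its F statistic. CPM used the library total, without TMM. Floors of 3 counts cover counting error only. Samples were grouped by their labels. Gene positions, exon lengths, overlaps and GC content came from GENCODE M21 by symbol (94.5% of symbols matched). The GC offset was a smooth of log counts against GC content in each sample (mgcv 1.9.3). DESeq2 1.42.0, limma 3.58.1, other scalings and filters, drawn-down counts, a covariate and leaving out each sample were alternatives. The fit was tested on simulated data: of 198 genes changed by 1 on the log2 scale among 14155 in the same design, 74.2% were recovered. Of the calls in that simulation 5.16% were false. No member changed by as much as 1, so the share recovered does not apply to smaller changes such as that of Fos. The replicate numbers shared by the groups belong to different neurons, and same-numbered samples did not deviate together (mean correlation -0.053 over 3 pairs), so they were not treated as pairs.

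Each member past the threshold or without overlap between groups was given in every sample, together with Fos, Fosb, Junb, Egr1, Arc, Npas4, Nr4a1, Homer1, Nptx2, Dusp1 and Per1 whatever their values; of each further list, up to 6 genes with the largest changes past the threshold were named. The members, the lists and these rules were chosen with earlier results of these data known.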

Additional observations from a re-analysis of the deposited data

Results flagged for a closer look

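Among 41 levels and sums checked in the 4 TR samples, 3 genes had 1 sample far from the other 3, its gap to the nearest taking more of the whole range than the 0.829 that chance exceeds in about 1 of 20 such groups. For Egr1 the gap was 0.911 of the range, with TR replicate 2 at 396 CPM. For Jund it was 0.856, with TR replicate 2 at 54.8 CPM, the lowest of all samples. For Klf4 it was 0.941, with TR replicate 3 at 83.3 CPM. With 41 checks at this cutoff, a few such gaps can come from chance alone. The effector sum is not among these 3 genes, but its gap was also past that cutoff. TR replicate 3 was at 863 CPM and the other TR samples at 741.7 to 757 CPM.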

How the results depend on the processing

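The members higher and lower numbered 6 and 5 in edgeR. With genes detected per sample as a covariate they were 0 and 0 (1 gene of all, 0 and 0 of the other activity-regulated genes, 0 and 0 of the upstream genes). With the GC offset 2 members were lower (2203 of all genes), and 4 activity-regulated and 1 upstream genes were higher (1337 of all genes). DESeq2 did not call Klf4 (adjusted p = 0.0518) or Nptx2 (adjusted p = 0.0736). The replicate block pairs samples by numbers that belong to different neurons, and it leaves TR replicate 4 out for want of a partner. It gave 8 higher and 5 lower members of 36, against 2031 and 2077 of 14407 genes. Fos (adjusted p = 0.042, edgeR) and Klf2 were among the higher members, all 11 calls were kept, and 1 activity-regulated gene was lower. With the GC offset added the block gave 8 and 1 members, against 1189 and 1716 of all genes. In that fit 4 activity-regulated genes were higher, and 1 upstream gene was higher and 5 lower. Upstream genes higher were 5 with DESeq2 (2058 of all genes), 5 with limma (2295) and 7 with upper quartile scaling (2634). Activity-regulated genes lower were 1 with DESeq2 (1752 of all genes) and 1 with upper quartile scaling (1608), which put 62.1% of all calls on the higher side. Leaving out each sample gave 3 to 7 members higher and 4 to 7 lower, 2620 to 4583 genes in all, 5 to 9 and 1 to 3 activity-regulated genes, and 1 to 6 and 5 to 8 upstream genes; Jund, Egr4, Klf10, Ier5, Dusp6, Gadd45b and Gadd45g passed in all 7 of these fits. NR replicate 3 moved the count of all genes most.

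Some log2 fold changes changed sign. With the covariate these were Junb (0.054), Egr1 (-0.0074), Egr2 (-0.32), Egr3 (-0.028) and Ier2 (0.029). With the GC offset they were Junb (0.15), Klf6 (-0.041) and Homer1 (-0.063), and with block and offset Junb (0.26), Klf6 (-0.033), Crem (-1.46e-05) and Homer1 (-0.069). With all genes of at least 1 count, where the median of all genes moved to 0.17, they were Egr2 (-0.011), Maff (-0.0036), Per1 (-0.0038), Ier3 (-0.087) and Sik1 (-0.0093). Ier3 also did so with limma (-0.015), library size alone (-0.049) and drawn-down counts (-0.057). Leaving out a sample gave ranges across 0 for Fosb (-0.010 to 0.21), Fosl2 (-0.11 to 0.28), Egr2 (-0.029 to 0.24), Atf3 (-0.18 to 0.065), Per1 (-0.0025 to 0.17), Ier3 (-0.16 to 0.097) and Sik1 (-0.035 to 0.23). The cause of these changes was not tested. With all genes of at least 1 count Arc and Ier2 were also lower (adjusted p = 0.0332 and 0.0194, edgeR). At these depths the lowest members were measured with few counts.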
